A study of Mus musculus with 8 samples.

Results

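Messenger RNAs of 10 genes that mark resident Kupffer cells were followed in bulk liver RNA from mice with and without ERCC1 deficiency. The genes are Clec4f, Vsig4, Timd4, Folr2, Cd5l, C1qa, C1qb, C1qc, Marco and Cd163. They were taken by symbol from a count table of 55487 genes, all 10 were found, and all 10 were among the 15598 genes that passed a filter on low counts. The 8 libraries, 1 per mouse, fall into 3 groups: WT (n = 4, aged 10.7, 12.3, 11.1 and 11.8 weeks), Ercc1 (n = 2, genotype Ercc1 -/D, aged 15.1 and 13.7 weeks) and NemoDK_Ercc1 (n = 2, genotype NEMO DK; Ercc1-/D, both aged 11.8 weeks). All mice are labelled female. The minus sign stands for a null Ercc1 allele and D for a hypomorphic one, and both mutant groups carry the same pair, so no group shows the Nemo change without ERCC1 deficiency. ERCC1 forms part of a nuclease that cuts damaged DNA during excision repair. NEMO is the product of Ikbkg and the scaffold of the IKK complex, through which many signals switch on NF-kB. The labels use the term DK without explaining it.

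Kupffer cells are the resident macrophages of the liver. They sit in the sinusoids, clear bacteria, lipoproteins, aged red cells and dying cells from portal blood, and are seeded before birth, although monocytes can take over the niche when resident cells are lost. Their identity depends on CSF1 receptor signalling and on cues from neighbouring endothelial, stellate and parenchymal cells, among them Notch ligands and TGF-beta family members, which maintain factors such as LXR-alpha, SpiC and ID3. In the mouse, Clec4f (a galactose-binding C-type lectin) is close to exclusive to these cells. Vsig4 (a complement receptor of the immunoglobulin superfamily) and Timd4 (a phosphatidylserine receptor for dying cells) are typical of long-lived resident macrophages, and Timd4 is acquired late by cells of monocyte origin. Folr2 encodes folate receptor beta, Cd5l the secreted protein AIM, and C1qa, C1qb and C1qc the chains of complement C1q. Marco encodes a class A scavenger receptor for bacteria and particles, and Cd163 the receptor for hemoglobin bound to haptoglobin.

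Because 4 of the markers, Marco, Cd163, Cd5l and Vsig4, differed from WT by the test described below, the 250 bases before their transcription starts are given here. The sequences are those of RefSeq on GRCm38.p6, written 5′ to 3′ on the gene's strand, and each window ends within 10 bases of the gene start in the GENCODE M21 annotation. Marco is on the minus strand (window chr1:120505025-120505274), Cd163 on the plus strand (chr6:124304401-124304650), Cd5l on the plus strand (chr3:87357631-87357880) and Vsig4 on the minus strand (chrX:96293439-96293688). Capitals mark the letters GAGGAA, the core bound by the macrophage factor PU.1, or the same letters on the other strand, TTCCTC.
Marco: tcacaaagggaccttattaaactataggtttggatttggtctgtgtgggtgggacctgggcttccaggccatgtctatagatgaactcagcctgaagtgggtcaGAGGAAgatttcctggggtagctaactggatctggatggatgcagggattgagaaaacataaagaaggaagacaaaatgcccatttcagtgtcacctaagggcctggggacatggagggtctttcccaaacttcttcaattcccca
Cd163: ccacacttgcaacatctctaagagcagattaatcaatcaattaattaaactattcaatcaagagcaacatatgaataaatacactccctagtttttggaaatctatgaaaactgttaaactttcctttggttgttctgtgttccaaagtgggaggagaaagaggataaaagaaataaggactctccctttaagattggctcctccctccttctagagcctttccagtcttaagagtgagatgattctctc
Cd5l: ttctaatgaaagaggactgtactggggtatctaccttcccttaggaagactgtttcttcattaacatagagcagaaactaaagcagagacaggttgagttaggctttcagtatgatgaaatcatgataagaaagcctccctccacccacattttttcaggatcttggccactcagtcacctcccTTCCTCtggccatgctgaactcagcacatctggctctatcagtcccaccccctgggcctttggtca
Vsig4: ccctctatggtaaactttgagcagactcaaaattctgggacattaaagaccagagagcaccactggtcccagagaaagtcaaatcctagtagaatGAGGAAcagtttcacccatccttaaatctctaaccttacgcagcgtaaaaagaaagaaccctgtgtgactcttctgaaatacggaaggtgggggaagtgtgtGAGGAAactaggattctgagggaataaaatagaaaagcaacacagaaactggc

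The GAGGAA core, searched on both strands, was in the Marco, Cd5l and Vsig4 windows and not in the Cd163 window. It was in 5 of the 9 markers with a RefSeq promoter entry, and in 23.3% of all 32851 promoters of that length. Among the windows not printed, those of Clec4f, C1qc and C1qb end 71, 151 and 13 bases from the GENCODE gene start. The second RefSeq start of Folr2 is 11863 bases from it. The 3 other motifs were searched the same way: AGGTCA, bound by nuclear receptors such as LXR, was in 3 of the 9 markers and 14% of all promoters, TGCTGA, bound by MAF factors, in 5 of 9 and 16.1%, and TGGGAA, bound by the Notch effector RBPJ, in 2 of 9 and 21.6%. The Cd163 window held none of the 4 motifs, which says only that these letters are not in that window.

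Libraries held 21.6 to 27.8 M counts. Expression is given as CPM, the reads of a gene scaled to a common library size. The summed level of 10 hepatocyte genes was 89081 to 144372 CPM over the 8 libraries, and the 10 Kupffer cell markers made up 0.0284 to 0.0855% of all counts. CPM were computed on library sizes scaled with TMM factors, which were 0.8904 to 0.9319 in WT and 1.094 to 1.099 in the mutant groups. Ercc1 transcript ranged over 2.57 to 5.04 CPM in WT and over 1.49 to 1.87 CPM in the mutants, and Ikbkg was 56.8 to 68.4 CPM in WT, 93.3 and 84 CPM in Ercc1 and 81.9 and 71.9 CPM in NemoDK_Ercc1, so its RNA was not below WT in the mice with the Nemo change. The RNA of WT library 3 did not match a female mouse, as it had 3087 counts from 4 Y-linked genes and 0 from Xist, which had 9331 to 15744 elsewhere. Results that change without it are given below.

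The 10 markers did not move as 1 group. Marco rose 3.91-fold and Cd163 fell 2.58-fold in ERCC1-deficient livers compared with WT, and these were the 2 markers whose mutant and WT libraries did not overlap. Of all genes tested, 15.8% lay wholly above WT and 15.0% wholly below, so 1 marker each way does not exceed those shares. Cd5l and Vsig4 rose by a smaller margin, 1.95-fold and 1.77-fold, on calls that rested on single libraries. Clec4f, Folr2, C1qa, C1qb and C1qc were 1.58 to 1.82 times the WT level and Timd4 was 1.23 times, none of which passed the test. No marker was called between the mutant groups. The comparison over both mutant groups (4 libraries against 4) used edgeR's quasi-likelihood test, with p-values adjusted over all 15598 genes and a threshold of 0.05. It called 4 of the 10 markers, 3 higher and 1 lower, against 28.8% of all genes called (14.9% higher, 13.9% lower). The median log2 fold change of the markers was 0.71, and that of all genes tested was 0.00. In bulk RNA, fewer cells of a type and less RNA per cell cannot be told apart.

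**Figure D1:**
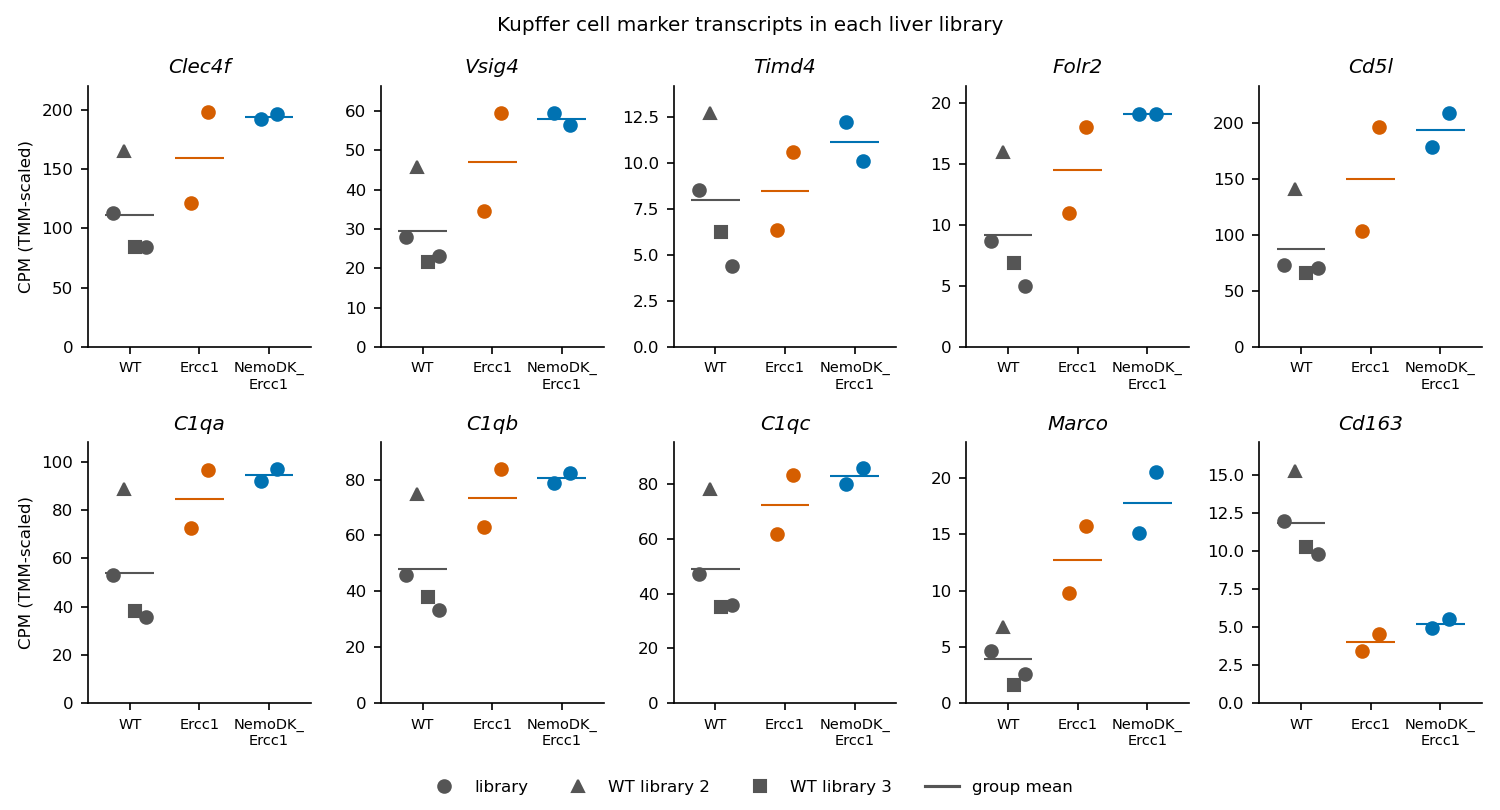
CPM (TMM-scaled) of each of the 10 markers in every liver library, by genotype, with 1 point per mouse and a line at the group mean; a triangle marks WT library 2 and a square WT library 3. All 4 mutant libraries lie above all WT libraries for Marco and below them for Cd163, and the other 8 markers overlap. Among all genes tested, 15.8% lay wholly above WT and 15.0% wholly below.

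Marco, the scavenger receptor, was at 4.6, 6.8, 1.57 and 2.55 CPM in WT libraries 1 to 4, at 9.75 and 15.7 CPM in Ercc1 and at 15.1 and 20.5 CPM in NemoDK_Ercc1. Every mutant library was above every WT library, which was so for 15.8% of all genes tested. The WT libraries themselves spanned 4.32-fold, with library 3 lowest and library 2 highest. The log2 fold change in both mutant groups against WT was 1.97 ± 0.41 (SE, edgeR adjusted p = 0.00855, 95% interval 1.05 to 2.89). The call held with each of the 8 libraries left out in turn, with values of 1.71 to 2.38. Without WT library 3 it was 1.71 (edgeR adjusted p = 0.00609).

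Cd163, the hemoglobin-haptoglobin receptor, moved the other way. It was at 12, 15.3, 10.3 and 9.84 CPM in WT, at 3.41 and 4.58 CPM in Ercc1 and at 4.96 and 5.51 CPM in NemoDK_Ercc1. The highest mutant library was well under the lowest WT library, and 15.0% of all genes tested lay entirely below WT in this way. The counts behind these values were 235 to 304 reads in WT and 93 to 151 in the mutants. The log2 fold change was -1.37 ± 0.18 (edgeR adjusted p = 0.00122, 95% interval -1.78 to -0.96), and stayed between -1.49 and -1.22 with any 1 library left out, called each time. Within WT, library 2 was the highest for Cd163 as it was for all 10 markers. That peak is not particular to the markers, as Dgat2, a gene abundant in hepatocytes, was also highest there at 1043 CPM. Between genotypes the change of Cd163 was opposite in sign to those of the other 9.

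The Ercc1 mice were older than every other mouse. With age as a covariate Cd163 was -1.41 (edgeR adjusted p = 0.0443) and Marco 1.84 (edgeR adjusted p = 0.15) in both mutant groups against WT. The NemoDK_Ercc1 mice were within the WT age range, and in the comparison of that group with WT the age-adjusted values were -1.18 for Cd163 (edgeR adjusted p = 0.0186) and 2.19 for Marco (edgeR adjusted p = 0.0258). In Ercc1 against WT no marker was called with age as a covariate, Cd163 being -1.63 (edgeR adjusted p = 0.211) and Marco 1.5 (edgeR adjusted p = 0.548). Of all 15598 genes tested, only 24 were called higher and 17 lower in that fit. The lack of marker calls there is near the share of all genes.

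Of the markers most restricted to Kupffer cells, Clec4f was at 113, 165, 84.1 and 83.9 CPM in WT, 121 and 198 CPM in Ercc1 and 192 and 196 CPM in NemoDK_Ercc1. Both NemoDK_Ercc1 libraries and 1 Ercc1 library were above all WT libraries, and the other Ercc1 library was below WT library 2. The log2 fold change was 0.66 ± 0.25 (edgeR adjusted p = 0.0759, 95% interval 0.10 to 1.22). Vsig4, the complement receptor, was at 28, 45.8, 21.5 and 23 CPM in WT, 34.5 and 59.5 CPM in Ercc1 and 59.5 and 56.3 CPM in NemoDK_Ercc1. It had the same overlap, with Ercc1 library 1 below WT library 2, and passed the test at 0.82 ± 0.26 (edgeR adjusted p = 0.0457). Timd4, the phosphatidylserine receptor, was at 8.52, 12.7, 6.24 and 4.4 CPM in WT, 6.34 and 10.6 CPM in Ercc1 and 12.2 and 10.1 CPM in NemoDK_Ercc1. No mutant library exceeded the highest WT library for Timd4, and its log2 fold change was 0.29 ± 0.31 (edgeR adjusted p = 0.517, 95% interval -0.42 to 1.01).

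Cd5l, the secreted AIM protein that binds lipid droplets and debris, was at 73.1, 141, 66 and 71 CPM in WT, 104 and 197 CPM in Ercc1 and 179 and 209 CPM in NemoDK_Ercc1. The 3 WT libraries other than library 2 lay close together at 66 to 73.1 CPM, below all mutant libraries, and WT library 2 lay between the Ercc1 libraries. The log2 fold change was 0.96 ± 0.29 (edgeR adjusted p = 0.0362). Folr2 was at 8.72, 16, 6.9 and 5.02 CPM in WT, 11 and 18 CPM in Ercc1 and 19.1 CPM in both NemoDK_Ercc1 libraries. Ercc1 library 1 was under WT library 2 and the other 3 mutant libraries were above all WT libraries, and its log2 fold change was 0.87 ± 0.33 (edgeR adjusted p = 0.0828). Exons of Folr2 overlap those of Gm10602 on the other strand, and no other marker had an exon overlap.

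The C1q chains are encoded side by side on chromosome 4 and assemble in fixed proportion. C1qa was at 53, 88.8, 38.1 and 35.9 CPM in WT, 72.6 and 96.5 CPM in Ercc1 and 92 and 97.1 CPM in NemoDK_Ercc1. C1qb and C1qc followed it closely: reads of C1qb per read of C1qa were 0.845 to 0.991 and reads of C1qc per read of C1qa 0.848 to 1 over the 8 libraries, with the groups overlapping. For each chain Ercc1 library 1 was below WT library 2 and the other 3 mutant libraries were above all WT libraries. The log2 fold changes were 0.73 ± 0.28, 0.68 ± 0.24 and 0.66 ± 0.25 for C1qa, C1qb and C1qc (edgeR adjusted p = 0.0801, 0.0662 and 0.0836).

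The overlap between genotypes lay mostly between WT library 2 and Ercc1 library 1, the lower Ercc1 library for all 10 markers. For Clec4f, Vsig4, Cd5l, Folr2, C1qa, C1qb and C1qc the mutant libraries other than Ercc1 library 1 were above all WT libraries. WT library 2 was the highest WT library for all 10 markers, and for 8 of them all 4 mutant libraries were above WT libraries 1, 3 and 4. How many of all genes tested show these patterns was not counted, so these marker counts have no background share beside them. Without WT library 2, 9 of the 10 markers were called in both mutant groups against WT, 8 higher and Cd163 lower. That compared with 25.5% of all genes in that fit, and the median log2 fold change of the markers was 1.03. Leaving out the highest WT library lowers the WT mean of every marker, which by itself favours higher calls. The count is therefore not separate evidence of a rise. The 8 higher values ran from 0.91 for Clec4f (edgeR adjusted p = 0.0146) to 2.38 for Marco (edgeR adjusted p = 0.00445), with Timd4 at 0.61 (edgeR adjusted p = 0.132). The pan-macrophage transcripts defined below were also highest in that WT library, at 492 CPM in sum against 261 to 336 CPM in the other 3. Whether its share of macrophage RNA accounts for the overlap was not tested. The calls of Cd5l and Vsig4 both ended without WT library 1 (0.89 and 0.80), 3 (0.85 and 0.70) or 4 (0.87 and 0.72), without Ercc1 library 2 (0.69 and 0.59), and without NemoDK_Ercc1 library 1 (1.01 and 0.80) or 2 (0.90 and 0.84). The highest edgeR adjusted p among these was 0.12 for Cd5l and 0.149 for Vsig4. Their calls held without WT library 2 (1.29 and 1.11) or Ercc1 library 1 (1.15 and 0.99).

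**Figure D2:**
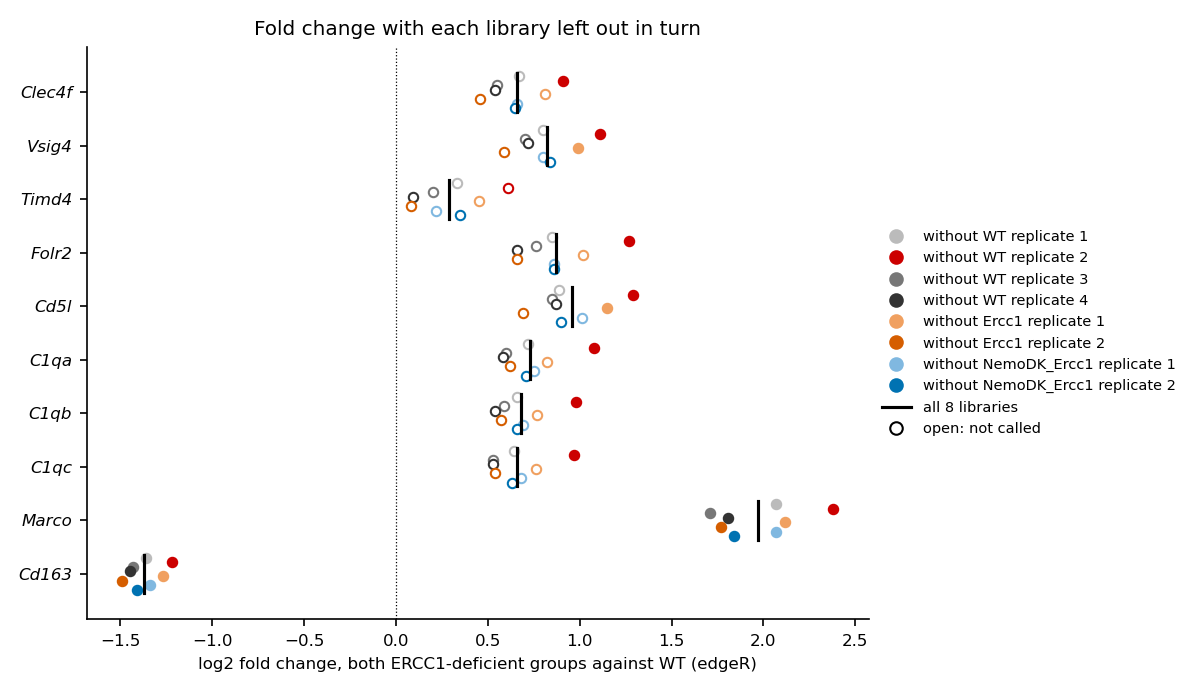
Log2 fold change of each marker in both ERCC1-deficient groups against WT (edgeR) with each library left out in turn; filled points passed an adjusted p of 0.05 and vertical lines give the value with all 8 libraries. Marco (1.71 to 2.38) and Cd163 (-1.49 to -1.22) stayed called throughout. Leaving out WT library 2, the highest WT library for every marker, moved 5 further markers past the threshold.

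Each mutant group was also set against WT alone. The 2 comparisons share the 4 WT libraries and are therefore not independent. In Ercc1 against WT 2 markers were called, Marco at 1.73 ± 0.46 (edgeR adjusted p = 0.0317) and Cd163 at -1.56 ± 0.23 (edgeR adjusted p = 0.00322), against 20.8% of all genes (11.3% higher, 9.50% lower). The Cd163 call held with each library left out. The Marco call ended without Ercc1 library 1 (2.03, edgeR adjusted p = 0.0754), Ercc1 library 2 (1.34, 0.186), WT library 4 (1.57, 0.0702) or either NemoDK_Ercc1 library (1.72 for both, 0.0529 and 0.0534). Without WT library 2, 8 markers were called, against 18.3% of all genes, but that library was the highest WT library for every marker.

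In NemoDK_Ercc1 against WT 3 markers were called, Marco at 2.21 ± 0.46 (edgeR adjusted p = 0.014), Cd5l at 1.15 ± 0.34 (edgeR adjusted p = 0.0483) and Cd163 at -1.18 ± 0.23 (edgeR adjusted p = 0.0105), against 18.0% of all genes (10.6% higher, 7.40% lower). Calls of all 3 ended when the group was left with 1 mouse: without NemoDK_Ercc1 library 1 the values were 2.41, 1.25 and -1.10 (edgeR adjusted p = 0.0657, 0.165 and 0.109), and without library 2 they were 1.97, 1.03 and -1.26 (0.111, 0.238 and 0.0778). The Cd5l call also ended without WT library 1 (1.06, edgeR adjusted p = 0.0969), 3 (1.03, 0.0653) or 4 (1.06, 0.102), and with age as a covariate (1.12, 0.0703). Without WT library 2, 9 markers were called, against 17.0% of all genes, but that library was the highest WT library for every marker. Vsig4 reached 0.97 ± 0.31 (edgeR adjusted p = 0.0618) and Folr2 1.07 ± 0.39 (edgeR adjusted p = 0.0932).

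**Figure D3:**
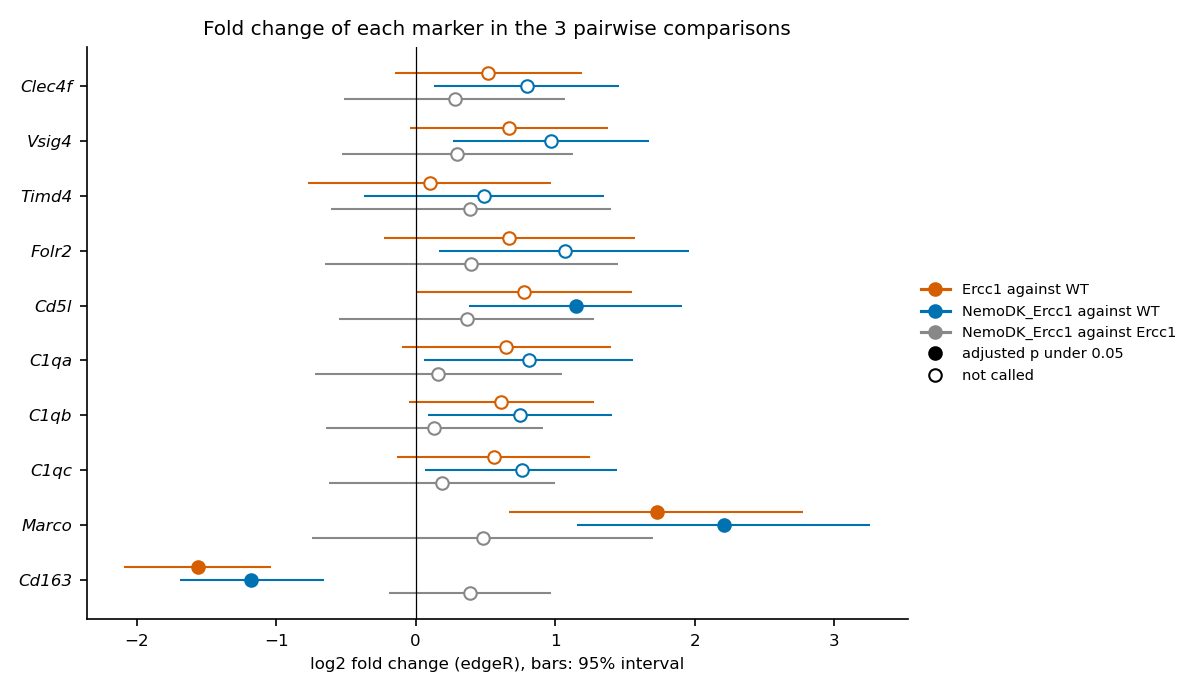
Log2 fold change of each marker (edgeR, bars: 95% interval) in Ercc1 against WT, NemoDK_Ercc1 against WT and NemoDK_Ercc1 against Ercc1; filled points passed an adjusted p of 0.05. Marco and Cd163 are called against WT in both mutant groups, Cd5l in NemoDK_Ercc1, and every interval between the mutant groups includes 0.

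The comparison that bears on the Nemo change, NemoDK_Ercc1 against Ercc1, called 0 of the 10 markers and 0 of all genes (0%) with edgeR. At an unadjusted p under 0.05 there were 1062 genes and 0 markers, and DESeq2 called 69 genes and limma-voom 0, none of them a marker. All 10 marker values were above 0, from 0.13 ± 0.34 for C1qb to 0.48 ± 0.54 for Marco. The intervals were wide: -0.74 to 1.70 for Marco, -0.19 to 0.97 for Cd163, -0.51 to 1.07 for Clec4f and -0.61 to 1.40 for Timd4. These values also leaned on 1 mouse, since Ercc1 library 1 was lower than Ercc1 library 2 for all 10 markers. Without Ercc1 library 1, 6 of the values changed sign and lay between -0.06 and -0.01. Ages differed as well, with both Ercc1 mice older than both NemoDK_Ercc1 mice, and with age as a covariate 0 markers were called and the marker median was 0.55, against 0.33 without it. The age-adjusted values moved most for the C1q chains, to 0.61 for C1qa, 0.50 for C1qb and 0.62 for C1qc, from 0.16, 0.13 and 0.19. With 2 mice in each group and no shared ages, age and genotype are not well separated here.

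Each marker was then expressed relative to macrophage RNA in the same library, as its CPM per 100 CPM of 15 pan-macrophage transcripts (among them Adgre1, Csf1r, Cd68, Lyz2 and Ctss). That sum was 336, 492, 288 and 261 CPM in WT, 430 and 643 CPM in Ercc1 and 561 and 624 CPM in NemoDK_Ercc1. WT library 2 was above Ercc1 library 1, and the genotypes otherwise did not overlap. On this scale Cd163 was 3.11 to 3.77 in WT and 0.713 to 0.885 in the mutants, and Marco 0.547 to 1.38 in WT and 2.27 to 3.29 in the mutants. Both were separated without overlap, and the ratio of the mean WT value to the mean mutant value of Cd163 was 4.28, larger than in whole-liver CPM. The pan-macrophage sum itself had a mean of 344 CPM in WT and 564 CPM in the mutants, which by itself enlarges that ratio. The other 8 markers overlapped, including Clec4f at 29.2 to 33.6 in WT and 28.2 to 34.3 in the mutants, and C1qb at 12.8 to 15.3 and 13.1 to 14.6. Timd4 was 1.69 to 2.58 in WT and 1.47 to 2.17 in the mutants.

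**Figure D4:**
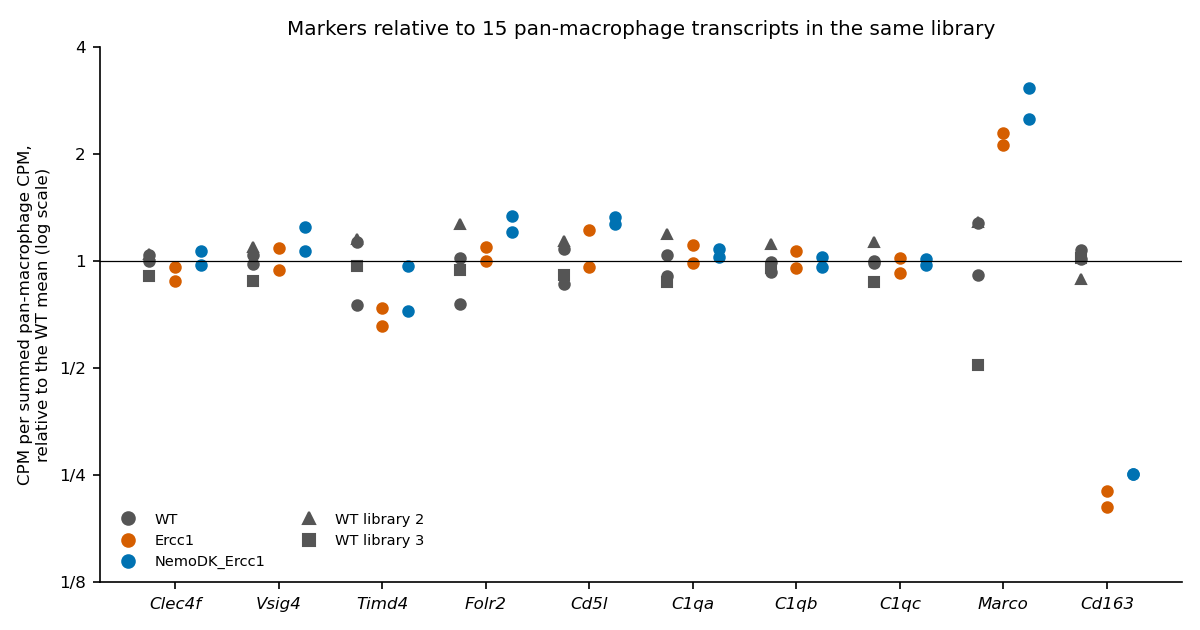
CPM of each marker divided by the summed CPM of 15 pan-macrophage transcripts in the same library, relative to the WT mean, on a log axis, with 1 point per library. Marco lies above and Cd163 below the WT libraries in all 4 mutant libraries, and the other 8 markers overlap WT.

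The choice of denominator mattered for the markers in between. Clec4f and Csf1r were tried as denominators after the values had been seen. Per 100 CPM of Clec4f, Cd163 was 9.25 to 12.2 in WT and 2.31 to 2.82 in the mutants, Marco 1.87 to 4.11 and 7.84 to 10.5, and Timd4 5.24 to 7.67 and 5.18 to 6.32, so the first 2 were again separated and Timd4 again overlapped. Cd5l (65 to 85 in WT, 85.7 to 107 in the mutants) and Vsig4 (24.9 to 27.7 and 28.4 to 30.9), which overlapped per pan-macrophage RNA, did not overlap on this scale. Per CPM of Csf1r, the receptor for CSF1, Cd163 was 0.187 to 0.26 in WT and 0.058 to 0.0784 in the mutants. On that scale the other markers except Timd4 lay above the whole WT range in all 4 mutant libraries, Clec4f for example at 1.99 to 2.22 and 2.51 to 2.83. Csf1r itself was 37.9 to 81.7 in WT and 46.3 to 79.1 in the mutants (CPM). How many of all genes tested lie outside the WT range per pan-macrophage RNA, Clec4f or Csf1r was not counted. Separation on these scales therefore has no background share beside it.

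Levels were compared between markers per kilobase of exon, as WT mean CPM per kb. C1qa was highest at 51.9, followed by Clec4f (45.1), C1qb (44.1), Cd5l (43.1), C1qc (25.4) and Vsig4 (19.9). A gap separated these from Folr2 (5.92), Timd4 (3.67), Cd163 (2.17) and Marco (2.02). Among neighbours in this order only Vsig4 and Folr2 had WT ranges that did not overlap, although C1qa exceeded Clec4f, Cd5l exceeded C1qc, C1qc exceeded Vsig4, Folr2 exceeded Timd4 and Timd4 exceeded Cd163 within each of the 4 WT libraries. On this per-kb scale the 2 markers that separated the genotypes were the 2 lowest in WT. The order depends on exon length, taken as all annotated exons of a gene merged. In WT mean CPM, Cd163 (11.8) was above Folr2 (9.15) and Timd4 (7.97). In NemoDK_Ercc1 the mean of Marco was 9.24 CPM per kb and that of Cd163 0.959, so a pair that stood about level in WT stood far apart in the mutants.

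For each marker the tested genes with the most similar pattern were found by the root-mean-square difference of log2 CPM, centred on each gene's mean, over the 8 libraries and 10860 candidate genes. This is a description in which all genes share the same libraries. The nearest genes to C1qa were Ctss (0.10), Hcls1 and Was, and to Clec4f Ms4a6c (0.08), Axl (0.08) and Cd86 (0.10). Those nearest to Vsig4 were Was (0.07) and Ctss (0.07), and to Folr2 Fcgr1 (0.13) and Tyrobp (0.14). Most of the genes named here are genes of myeloid cells, but those nearest to C1qb, C1qc and Cd5l are not reported here. Timd4 was nearest to Plcb2 (0.11). For Marco the nearest were Lgals3 (0.33), Capg (0.35) and Oas1a (0.37). These distances are larger, but Marco itself varied more. Its median distance to all candidates was 1.26, against 0.56 for Clec4f. Lgals3, which encodes galectin-3, was 2.97 to 6.95 in WT and 11.5 to 21 in the mutants (CPM). Cd163 was nearest to Macrod1 (0.11), Cpq (0.14) and Dgat2 (0.15), the last a triglyceride synthesis enzyme abundant in hepatocytes at 691 to 1043 in WT and 253 to 514 in the mutants (CPM). The nearest marker to Cd163 was Timd4, at 0.89, and the farthest was Marco, at 1.78.

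Other gene lists, chosen with earlier results of these data known, were counted in both mutant groups against WT. In that comparison 28.8% of all genes tested were called, 14.9% higher and 13.9% lower. Of 20 other Kupffer cell genes 0 were called lower, with a median log2 fold change of 0.29. Higher calls numbered 3, near the share of all genes. They were Il18bp (the decoy for interleukin-18, 0.83 ± 0.20, edgeR adjusted p = 0.0154), Cd38 (0.43 ± 0.12, 0.0241) and Fabp7 (0.76 ± 0.24, 0.048). The list ranged from 0 higher calls, without Ercc1 library 2 or NemoDK_Ercc1 library 2, to 6 without WT library 2, with 1 higher call without NemoDK_Ercc1 library 1 and 1 higher and 1 lower without WT library 4. Of 15 pan-macrophage genes 6 were called higher and 0 lower, with a median of 0.81. Among them were Sirpa (the receptor for CD47, 1.24 ± 0.15, edgeR adjusted p = 0.0008), Cd68 (1.22 ± 0.22, 0.00535) and Lyz2 (0.96 ± 0.18, 0.00577). Adgre1 (F4/80) at 0.50 ± 0.31, Csf1r at 0.31 ± 0.26 and Mertk at 0.02 ± 0.11 were not called. This count was 12 without WT library 2 and 3 without WT library 4, Ercc1 library 2 or NemoDK_Ercc1 library 2.

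Genes of monocytes and recruited macrophages had the highest median of the lists counted. Of 20, 19 were tested, 14 were called higher and 1, Fabp5, lower, against 14.9% and 13.9% of all genes. The median log2 fold change was 1.78. Mmp12, the macrophage elastase, was 0.0772 to 0.393 in WT and 7.33 to 15.7 in the mutants (CPM; log2 fold change 6.0 ± 0.43). Gpnmb, a glycoprotein of lipid-handling macrophages, was 0.0484 to 0.349 in WT and 3.04 to 9.7 in the mutants (CPM; log2 fold change 5.29 ± 0.54). The higher count stayed at 13 to 15 with any library left out, and the lower call ended without NemoDK_Ercc1 library 1. Their summed level was 91 to 156 in WT and 151 to 179 in the mutants (CPM). Fabp5 alone was 37.1 to 89.9 CPM of the WT sums and 19 to 32.5 CPM of the mutant sums, and without it, a choice made after its values were seen, the WT sums were 52.7 to 65.9 CPM and the mutant sums 118 to 154 CPM, with no overlap. These stand beside 305 to 645 and 487 to 781 CPM for the 10 Kupffer cell markers. The part that incoming cells have in the marker values was not tested.

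**Figure D5:**
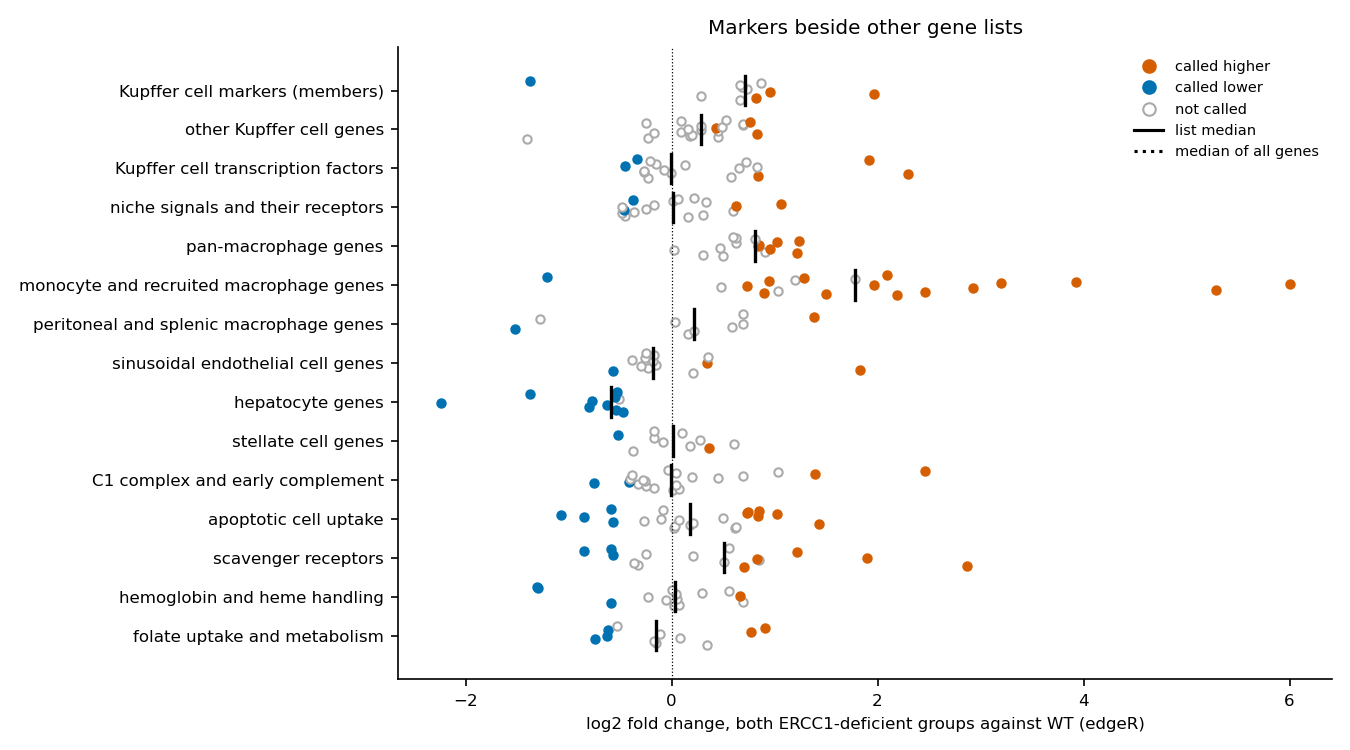
Log2 fold change in both ERCC1-deficient groups against WT (edgeR) of every tested gene of 15 lists, with a bar at the median of each list and a dotted line at the median of all genes. The Kupffer cell markers have a median of 0.71 with Marco and Cd163 at the ends, the recruited macrophage genes a median of 1.78 and the hepatocyte genes -0.59.

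Of 17 transcription factors of Kupffer cells 3 were called higher and 2 lower, with a median of -0.01. The share called was near the 28.8% of all genes. Id1 was at 6.2 to 17.3 in WT and 42.7 to 67.9 in the mutants (CPM; log2 fold change 2.30 ± 0.28, edgeR adjusted p = 0.000913), Irf7, an interferon regulator, at 1.92 ± 0.26 (0.0015), and Id3, which is needed for Kupffer cell development, at 0.84 ± 0.17 (0.00734). Smad4 fell by 0.45 on the log2 scale (edgeR adjusted p = 0.00727), and Tcf7l2 was the other gene called lower. Nr1h3 (LXR-alpha), which maintains Kupffer cell identity, was at 98.6 to 148 in WT and 103 to 107 in the mutants (CPM; log2 fold change -0.23 ± 0.13, edgeR adjusted p = 0.21). Spic (0.58 ± 0.33) and Zeb2 (-0.01 ± 0.15) were not called either. ID1, ID3 and LXR-alpha are not restricted to Kupffer cells in liver, so these levels cannot be assigned to them. The higher count was 5 without WT library 2, and the lower count was 1 without WT library 1 or 4, Ercc1 library 1 or either NemoDK_Ercc1 library.

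Of 17 signals of the Kupffer cell niche and their receptors 2 were called higher and 2 lower, with a median of 0.01. Among all genes 14.9% were called higher and 13.9% lower. The TGF-beta receptor gene Tgfbr2 rose, being 17.4 to 25.4 in WT and 36.5 to 50.7 in the mutants (CPM; log2 fold change 1.06 ± 0.15, edgeR adjusted p = 0.00151) and Tgfb1 rose by 0.63 ± 0.13 (0.0102). Notch2 was 47.6 to 53.1 in WT and 34.4 to 38.7 in the mutants (CPM; log2 fold change -0.46 ± 0.09, edgeR adjusted p = 0.00558), and Bmpr2 was the other gene called lower. The CSF1 receptor ligands were not called, Csf1 at 0.16 ± 0.21 and Il34 at -0.45 ± 0.27. The lower count was 1 without WT library 1, 3 or 4, Ercc1 library 1 or NemoDK_Ercc1 library 2.

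Partners of the markers were counted next, beside 14.9% of all genes called higher and 13.9% lower. Some lists share genes, so their counts are not independent. Itgax is in the C1 complex and recruited macrophage lists, and Cd68 in the pan-macrophage and scavenger receptor lists. Lrp1 is in the lists of apoptotic cell uptake, scavenger receptors and heme handling. C1q acts with the proteases encoded by C1ra (0.01 ± 0.11) and C1s1 (-0.17 ± 0.11), neither of which was called, and of 20 tested genes of the C1 complex and early complement 2 were higher and 2 lower, with a median of -0.01. C3ar1, a receptor for a complement C3 fragment, rose by 1.39 ± 0.30 (edgeR adjusted p = 0.0103) and C4b fell by 0.75 on the log2 scale (0.00425). That list had 4 higher without WT library 2, and 1 lower without WT library 1 or 4, Ercc1 library 1 or NemoDK_Ercc1 library 2. Of 21 tested genes of apoptotic cell uptake, the pathway of Timd4, 6 were higher and 4 lower, and 3 were higher without WT library 1 or 4, Ercc1 library 2 or either NemoDK_Ercc1 library. Mfge8, a bridge to phosphatidylserine, was 10.2 to 13.7 in WT and 28.2 to 33.9 in the mutants (CPM; log2 fold change 1.43 ± 0.12, edgeR adjusted p = 0.000163), and Dock1, which drives engulfment, fell by 1.07 on the log2 scale (0.000223). Of 15 tested scavenger receptor genes other than Marco 5 were higher and 3 lower, with Cd36, which binds oxidised lipids, at 10.6 to 27.8 in WT and 129 to 165 in the mutants (CPM; log2 fold change 2.87 ± 0.28, edgeR adjusted p = 0.000367). The scavenger receptor count was 3 higher without either NemoDK_Ercc1 library and 5 lower without Ercc1 library 2.

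Around Cd163, 14 genes of hemoglobin and heme handling had 1 higher and 3 lower, with a median of 0.03. All genes had 14.9% higher and 13.9% lower. The heme transporter gene Slc48a1 rose by 0.66 ± 0.11 (edgeR adjusted p = 0.00344). The 3 lower genes were Lrp1, which encodes a receptor for heme bound to hemopexin (-0.59 ± 0.11, edgeR adjusted p = 0.00534), and the globin genes Hba-a1 (-1.30 ± 0.34, 0.0234) and Hbb-bs (-1.31 ± 0.37, 0.0305). Hba-a1 was 139, 150, 66.7 and 83.3 CPM in WT, 36.8 and 46.2 CPM in Ercc1 and 26.5 and 69.1 CPM in NemoDK_Ercc1, overlapping through 1 NemoDK_Ercc1 library. Both globin calls ended without WT library 1 or 2 or either Ercc1 library, and that of Hba-a1 also without NemoDK_Ercc1 library 1. Hp, which encodes haptoglobin, the carrier that brings hemoglobin to CD163, was at 2225 to 2567 in WT and 2009 to 2619 in the mutants (CPM; log2 fold change 0.02 ± 0.12, edgeR adjusted p = 0.929). Of 11 tested genes of folate uptake and metabolism, the pathway of Folr2, 2 were higher and 3 lower, and Mthfd1 fell by 0.62 on the log2 scale (edgeR adjusted p = 0.0049). The folate count was 0 or 1 higher with any library left out, and 1 lower without NemoDK_Ercc1 library 2. The heme count was 3 higher without WT library 2, and 1 lower without WT library 1 or 2 or either Ercc1 library.

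Genes of the cells that surround Kupffer cells gave the background, beside 14.9% of all genes called higher and 13.9% lower. Of 10 hepatocyte genes 0 were called higher and 9 lower, with a median of -0.59, and their summed level was 119422 to 144372 in WT and 89081 to 90157 in the mutants (CPM), without overlap. The lower count was 4 without NemoDK_Ercc1 library 2. Cd163 and these genes fell in the same libraries, and whether a change in the make-up of liver RNA has a part in the Cd163 value was not tested. Of 13 sinusoidal endothelial genes 2 were higher and 1 lower (summed level 555 to 629 CPM in WT, 463 to 591 CPM in the mutants), with Lyve1 at 1.83 ± 0.25 (edgeR adjusted p = 0.00143) and Stab2 at -0.57 ± 0.12 (0.00916). The endothelial count was 1 higher without WT library 2, 3 or 4, Ercc1 library 2 or either NemoDK_Ercc1 library, and 2 lower without Ercc1 library 2. Of 10 stellate cell genes 1 was higher and 1 lower, at 424 to 505 and 340 to 500 CPM in sum, and with single libraries left out 0 to 1 were higher and 0 to 2 lower. Of 9 genes of peritoneal and splenic macrophages 1 was higher and 1 lower, at 83.1 to 132 CPM in sum in WT and 128 to 145 CPM in the mutants, with 3 higher without WT library 2 or Ercc1 library 1. With age as a covariate 827 of all genes were called in this comparison, with 0 of the other Kupffer cell genes, 1 pan-macrophage gene, 6 recruited macrophage genes and 1 hepatocyte gene among them.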

How the data were processed

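Total RNA from 8 livers was extracted with Trizol and made into stranded libraries with an Illumina TruSeq Total RNA kit, per the labels' protocols. The authors deposited raw counts per gene. The tools named, per the submitters' processing notes, are HISAT2 2.1.0, FastQC and featureCounts, with the build GRCm38 (mm10). The annotation release, strand setting and treatment of multi-mapping reads are not given in the sources used here. GENCODE M21 held 55227 of the 55487 identifiers and gave exon lengths and overlaps.

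The 10 markers, the 14 other lists and the comparisons were chosen with earlier results of these data known. The deposited counts entered edgeR 4.0.16 (R 4.3.3) with filterByExpr, TMM factors and glmQLFit, fitting 1 mean per group to all 8 libraries (5 residual and 3.67 prior degrees of freedom; common BCV 0.227). Benjamini-Hochberg adjustment covered the 15598 genes tested, at 0.05. A standard error is |log2 fold change| over the square root of F. Alternatives used limma 3.58.1 and DESeq2 1.42.0, other scaling factors, other filters, robust empirical Bayes, a fit of only the groups compared, age in weeks as covariate, stricter and looser thresholds, and leaving out each library. The fit was tested on simulated counts in which a small part of the genes was changed. In both mutant groups against WT it recovered 53.8% of log2 changes of 1 and 95.4% of log2 changes of 2. The genes named were all 10 markers, up to 4 genes per list with the smallest p in both mutant groups against WT, a few fixed genes such as Adgre1, Csf1r, Nr1h3 and Hp, and genes among the 3 nearest in pattern to each marker, of which some are not reported here. Cases that bear on a count and fall outside this rule (Tcf7l2, Fabp5) were named after their values were seen. The design describes the mice as independent biological replicates.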

Additional observations from a re-analysis of the deposited data

Results flagged for a closer look

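Of 92 genes examined, the markers and genes named beside them or eligible by the naming rule for lists, 10 had 1 WT library far from the other 3 by Dixon's test, which flags about 1 in 20 groups by chance. WT library 2 was the high one for 6: Cd5l at 141 CPM against 66 to 73.1 CPM in the other 3, Irf7 at 42 CPM against 19.3 to 19.7 CPM, Mertk at 34.7 CPM, Vcam1 at 12.7 CPM, Clec7a at 4.53 CPM and Serping1, which encodes the C1 inhibitor, at 1074 CPM. WT library 3, whose RNA did not match its label of a female mouse, was the low one for Il34 at 2.14 CPM, Icam2 at 1.97 CPM and the heme transporter gene Slc48a1 at 43.7 CPM. The folate enzyme gene Fpgs was 240 CPM in WT library 1.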

How the results depend on the processing

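With 2 mice in each mutant group, leaving out 1 library changed many calls. The fewest reads behind a marker were those of Marco in WT, 36 to 135 per library, so its WT level has the largest relative counting error of the 10. No paired analysis was possible because each library is a different mouse and the labels carry no shared replicate numbers. Library size alone moved the median of all genes by 0.26 in Ercc1 and 0.27 in both mutant groups against WT. The markers' fold changes under single alternatives kept their direction and side of the threshold 608 times, passed it 57 times, fell short 37 times and changed sign 8 times. For the last, the cause was not tested: Timd4 in Ercc1 against WT was -0.11 without WT library 4 and -0.32 without Ercc1 library 2, and between the mutant groups without Ercc1 library 1 Clec4f was -0.03, Vsig4 -0.04, Cd5l -0.03, C1qa -0.03, C1qb -0.06 and C1qc -0.01. Leaving out the other Ercc1 library gave 0.42 for Timd4 (without library 1) and, between the mutant groups without library 2, 0.68 for Clec4f, 0.75 for Vsig4, 0.90 for Cd5l, 0.38 for C1qa, 0.35 for C1qb and 0.43 for C1qc.

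Markers called in Ercc1 against WT (2) were 5 with library size alone, 1 with robust empirical Bayes, 0 with age, 1 with only the groups compared, 1 at an adjusted p of 0.01, and 1 to 8 with a library left out. In NemoDK_Ercc1 against WT (3) they were 9 with library size alone, 9 without a filter, 6 with DESeq2, 5 with limma-voom, 2 with age (Cd5l lost), 0 at 0.01, 6 at 0.10, and 0 to 9 with a library left out. In both mutant groups against WT (4) they were 9 with library size alone, 9 without a filter, 9 with DESeq2, 2 with robust empirical Bayes, 1 with age, 2 at 0.01, 9 at 0.10, and 2 to 9 with a library left out. All genes called in Ercc1 against WT (3243) were 41 with age, 1223 at 0.01 and 1157 to 3408 with a library left out. In NemoDK_Ercc1 against WT (2800) they were 926 at 0.01, 4252 at 0.10 and 537 to 3016 with a library left out. In NemoDK_Ercc1 against Ercc1 (0) they were 65 without a filter, 69 with DESeq2, 1 with only the groups compared and 0 to 2 with a library left out. In both mutant groups against WT (4488) they were 827 with age, 1999 at 0.01 and 2495 to 4332 with a library left out. Higher and lower calls split 1761 to 1482, 1646 to 1154 and 2317 to 2171 with TMM in the 3 comparisons with WT, and 3765 to 690, 3508 to 490 and 4945 to 898 with library size alone. All-gene counts are given here for some settings only. Marker counts under the other settings show how far the calls shift and are not a result about the markers.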
